A study of Mus musculus with 8 samples.

Results

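The pancreas of mice with genetic obesity was compared with that of mice with diet-induced obesity, by RNA-Seq of 2 ob/ob mice and 3 mice on HFD, 5 of the 8 mice in the series. The other 3 mice, on LFD, were the lean group and serve here as a reference level. They also enter the gene tests below, whose estimate of the spread is shared by all 8 mice. All mice were male. The ob/ob mice (C57BL/6J; ob/ob) carry no functional leptin and ate standard chow, whereas the HFD and LFD mice were C57BL/6 WT. The feeding groups were formed at the age of 4 weeks, HFD held 60% of its calories as fat and the feeding lasted 10 weeks. The study describes the tissue of all these mice as bearing mT organoids, grown from mouse pancreatic tumors and transplanted into the pancreas, which the sample labels do not mention. Each value is therefore a mixture of pancreas and any graft in it, and genotype and chow differ together between the models, so that they cannot be told apart. Values are rlog values, read estimates per gene on a log2 scale corrected for library size, and a difference of 1 stands for a doubling, with differences of weakly expressed genes shrunken. The question was in which genes and cell types the 2 routes to obesity differ, gene by gene across all 15047 genes of the table.

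Leptin is a hormone of fat cells that limits food intake through its receptor in the brain. Mice without it overeat from weaning and develop insulin resistance, which the beta cells of the islets meet with more insulin, whereas a fat-rich diet produces a slower weight gain with leptin present. The exocrine pancreas, made of enzyme-secreting acinar cells and of ducts, forms most of the organ, and islets are a small share of its mass. In such bulk tissue, fewer cells of a type and less RNA per cell cannot be told apart.

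The transcript of the mutated gene did not separate the models. Lep RNA was at 7.27, 7.26 and 7.31 in the HFD mice (replicates 1, 2 and 3) and at 8.12 and 6.78 in ob/ob replicates 1 and 2, against 5.86 to 6.28 in the LFD mice. The ob allele is a point mutation whose transcript is still made, so that the level of Lep RNA does not check the label. Lepr, the leptin receptor, was at 7.27, 7.78 and 7.02 in HFD and at 6.58 and 7.15 in ob/ob, with overlapping groups (difference ob/ob minus HFD -0.49, standard error 0.34).

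HFD replicate 3 stood apart from the other mice, and this touched the results that follow. In this mouse 101 genes were more than 2 above every other mouse, whereas ob/ob replicate 2 had 20 such genes and each of the others between 0 and 4. Among them were genes known from small intestine absorptive cells. Apoa1, an apolipoprotein of intestine and liver, was at 13.46 in HFD replicate 3, at 3.77 and 3.70 in HFD replicates 1 and 2, and at 6.51 and 6.29 in the ob/ob mice. Fabp1, a fatty acid binding protein of the same cells, was at 13.31 there and at 6.82 or below elsewhere, and Lct, the milk sugar digesting enzyme, was at 11.09 there and at 4.96 or below elsewhere. The mean of 15 genes of this kind, chosen after their values were seen, was 11.3 in HFD replicate 3 and between 4.92 and 6.48 in the other mice. Only 2 of the 8 genes of the small intestine list were measured, Vil1 and Lct, and both were highest in this mouse. The acinar genes also spread widely within each model. The mean of 28 acinar enzyme and secretory genes was 17.3, 15.2 and 13.4 in the HFD mice and 16.6 and 13.6 in the ob/ob mice, each in the order of the replicates, against 17.0 to 17.5 in LFD. The models overlapped over this whole range, so that they were not separated by acinar content. The part of acinar content and of intestinal RNA in the differences below was not tested beyond the fits with an acinar covariate and without HFD replicate 3, whose values are given where they matter.

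**Figure D1:**
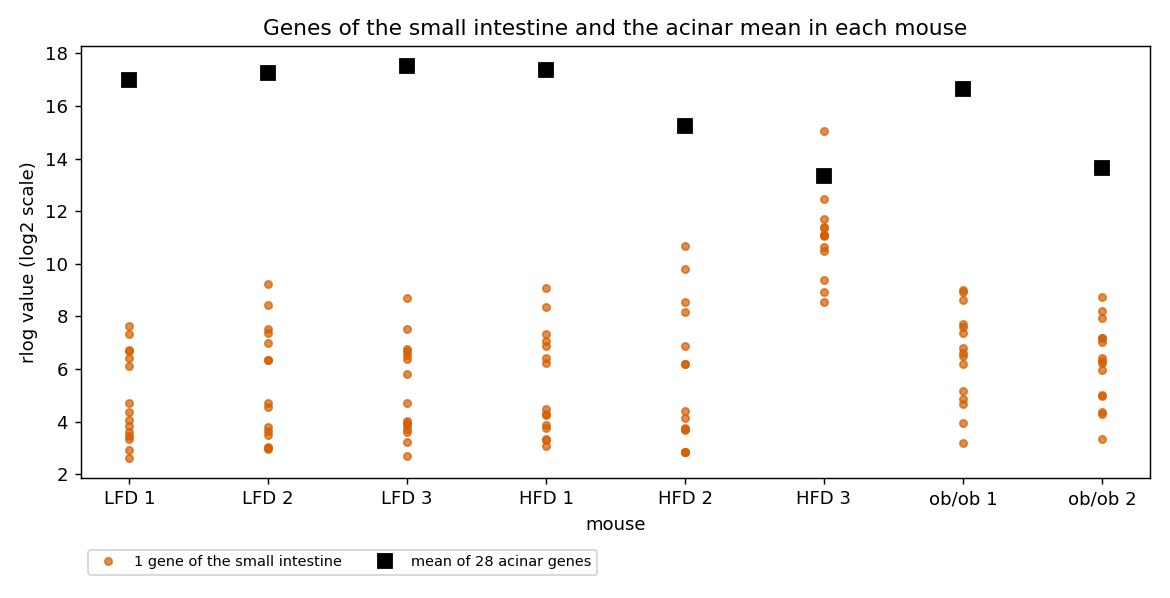
Rlog value (log2 scale, y axis) in each of the 8 mice (x axis) of 15 genes of the small intestine (circles, 1 per gene, chosen after the values were seen) and the mean of 28 acinar genes (black squares). The intestinal genes lie at a mean of 11.3 in HFD replicate 3 and at 6.48 or below in every other mouse, and the acinar mean spans 13.4 to 17.3 within HFD.

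Whole transcriptomes did not group by model. The mean Euclidean distance over all genes was 87.1 between an ob/ob and an HFD mouse and 97.6 between mice of the same model, a difference of -10.5 (one-sided exact permutation test over the 10 ways to choose 2 of the 5 mice, p = 0.9, where the smallest possible p is 0.1). The closest pair was HFD replicate 1 with ob/ob replicate 1, at a distance of 65.9, and the most distant was HFD replicate 1 with HFD replicate 3, at 126. Gene by gene, none of the 15047 genes (0%) reached an adjusted p-value under 0.05 with limma (Benjamini-Hochberg, smallest adjusted p = 0.883), so no single gene below is called different between the models. At an unadjusted p-value under 0.05 there were 343 genes higher in ob/ob (2.28% of all genes) and 245 lower (1.63%). In simulated data 5.29% of unchanged genes had such a limma p-value in either direction. An unadjusted p-value under 0.05 therefore does not by itself mark a difference. With the acinar mean as a covariate these counts were 648 (4.31%) and 541 (3.6%). Without HFD replicate 3 the counts were 336 and 173, of which 219 and 113 were among the genes counted with all mice. Every ob/ob mouse lay above every HFD mouse for 1191 genes (7.92%) and below for 815 (5.42%). With so few mice, such a separation in a given direction has a probability of 0.1 where the models do not differ. Both shares were below this, so a lack of overlap does not by itself mark a difference. These shares over all genes are the reference for the counts of the lists below. The median difference of all genes was 0.01, and 51.7% of genes had a higher mean in ob/ob.

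With all mice and all genes, the 4 lists of the endocrine islet had the highest medians on the ob/ob side. Over the 4 islet lists, 44 of 51 measured genes had a higher mean in ob/ob, with a median difference of 0.91. An unadjusted p-value under 0.05 was found for 24 of them on the higher side and for 1 on the lower side, and ob/ob mice lay above all HFD mice for 29. The mean of the 51 genes was 5.99, 5.71 and 5.70 in the HFD mice and 7.04 and 6.37 in the ob/ob mice. It was 6.12, 6.57 and 5.91 in LFD replicates 1, 2 and 3, so that LFD replicate 2 lay above ob/ob replicate 2. Of the 15 genes with the largest positive difference, among those with an unadjusted p-value under 0.05 and no overlap between the models, 7 belonged to these lists. Leaving out ob/ob replicate 1 took the medians of the hormone and granin lists from 1.44 and 1.84 to 0.86 and 1.42.

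Among the hormones, the beta cell products were higher in both ob/ob mice. Ins1 (chromosome 19, 52264297 to 52265476, GRCm38, Gencode M21), 1 of the mouse's insulin genes, was at 11.51, 11.06 and 10.85 in the HFD mice (replicates 1, 2 and 3) and at 13.19 and 12.44 in ob/ob replicates 1 and 2, with LFD from 11.16 to 12.26. Its difference was 1.68 (standard error 0.38, unadjusted p = 0.00204 and adjusted p = 0.883 with limma). Ins2 was at 12.10, 11.35 and 11.11 in HFD and at 13.84 and 12.42 in ob/ob, differing by 1.61 (standard error 0.46). Both genes thus had every ob/ob mouse above every HFD mouse and also above every LFD mouse. Iapp (chromosome 6, 142298423 to 142303961), amylin, which beta cells release with insulin, was at 10.88, 10.54 and 9.97 in HFD and at 13.09 and 11.81 in ob/ob, differing by 1.98 (standard error 0.44, unadjusted p = 0.0016). Ppy, pancreatic polypeptide, was at 6.23, 6.81 and 5.65 in HFD and at 8.33 and 7.87 in ob/ob, differing by 1.87. Pyy, peptide YY, had a difference of 1.27, with ob/ob at 7.68 and 6.78 and HFD from 5.35 to 6.29, and 0.97 without HFD replicate 3 (unadjusted p = 0.097). Glucagon, somatostatin and ghrelin did not follow. Gcg, glucagon of alpha cells, was at 10.42, 9.98 and 9.31 in HFD and at 11.00 and 9.83 in ob/ob, and the groups overlapped (difference 0.51, standard error 0.51). Sst, somatostatin of delta cells, had a difference of -0.12 (standard error 0.52), again with overlap. Ghrl, ghrelin, was lower in both ob/ob mice, at 2.0 and 1.72, than in HFD, at 2.21 to 3.10 (unadjusted p = 0.0945).

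**Figure D2:**
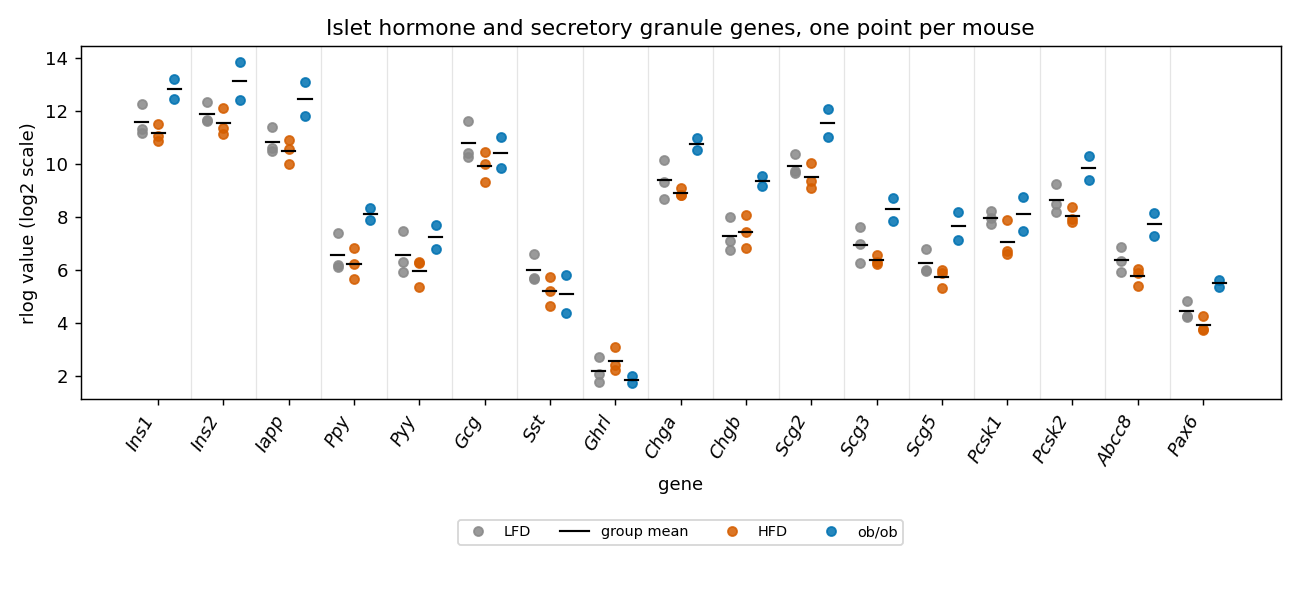
Rlog value (log2 scale, y axis) of 17 islet genes (x axis) in each mouse, grey for LFD, orange for HFD and blue for ob/ob, with a black line at each group mean. Both ob/ob mice lie above every HFD mouse for Ins1, Ins2, Iapp, Ppy, Pyy, Chga, Chgb, Scg2, Scg3, Scg5, Pcsk2, Abcc8 and Pax6, whereas Gcg, Sst and Pcsk1 overlap and Ghrl lies lower in ob/ob.

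The granins and the enzymes that cut prohormones in the dense-core secretory granule were higher as a group. All 10 measured members of 12 had a higher mean in ob/ob, with a median difference of 1.84, 7 with an unadjusted p-value under 0.05, and 8 with no overlap between the models. Scg2 (chromosome 1, 79434669 to 79440120, minus strand), secretogranin II, was at 10.02, 9.36 and 9.07 in the HFD mice (replicates 1, 2 and 3) and at 12.08 and 11.00 in ob/ob, differing by 2.06 (standard error 0.39, unadjusted p = 0.0006). Once the acinar mean was added to the limma fit, Scg2 was the 1 gene of the table (0.00665%) with an adjusted p-value under 0.05, at 0.0424 with a difference of 2.10. With the covariate and without HFD replicate 3 its adjusted p was 0.0651. Chga, chromogranin A, was at 9.07, 8.83 and 8.82 in HFD and at 10.99 and 10.51 in ob/ob (difference 1.84). Chgb (chromosome 2, 132781278 to 132795079), chromogranin B, was at 6.81, 7.43 and 8.07 in HFD and at 9.52 and 9.17 in ob/ob (difference 1.91), and stood above all LFD mice as well, by a gap of 1.10 to the nearest mouse. Pcsk2, the prohormone convertase that trims proinsulin and proglucagon, was at 8.36, 7.92 and 7.81 in HFD and at 10.27 and 9.37 in ob/ob (difference 1.79). Its partner Pcsk1 had a smaller difference, 1.05, with ob/ob replicate 2 at 7.48 below HFD replicate 1 at 7.86. Cpe, carboxypeptidase E, and Pam, which amidates peptide ends, had differences of 0.38 and 0.31.

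Several granin genes are known targets of CREB, the factor that acts when cyclic AMP rises, and the reference sequences show its site in 3 members. The letters TGACGTCA, which read the same on both strands, were searched in the 250 bases before each RefSeq gene start (GRCm38.p6). They stood in 3 of the 9 granin list members with a sequence, Scg2, Chgb and Pcsk1. Counted by window this was 3 of 10, against 1.55% of all 32851 such windows. The 100 bases around each match are printed 5′ to 3′ on the strand of the gene, with the element in capitals, for chr1:79440041-79440140 (minus strand), chr2:132781524-132781623 and chr13:75089733-75089832 (both plus strand).
Scg2: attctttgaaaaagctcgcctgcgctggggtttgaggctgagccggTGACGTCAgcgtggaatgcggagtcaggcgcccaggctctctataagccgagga
Chgb: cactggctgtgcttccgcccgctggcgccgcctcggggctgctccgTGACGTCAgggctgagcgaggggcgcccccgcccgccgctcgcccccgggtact
Pcsk1: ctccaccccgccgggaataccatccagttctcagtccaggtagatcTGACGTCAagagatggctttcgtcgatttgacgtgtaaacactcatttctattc
The element lies 68, 72 and 78 bases before the RefSeq start of Scg2, Chgb and Pcsk1. These starts lie 94, 364 and 31 bases downstream of the outermost Gencode M21 start, so that the printed stretch of Chgb lies within the Gencode gene, and those of Scg2 and Pcsk1 do so in part. It was shared by a gene with a difference of 2.06 and one with 1.05, and the other members with a sequence had no such letters in this window.

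The machinery that couples glucose to secretion and the islet transcription factors had positive medians too, but smaller ones. In the glucose sensing and secretion list 16 of 20 genes were higher in ob/ob (median 0.81), 8 of them with an unadjusted p-value under 0.05. Abcc8, the sulfonylurea receptor of the beta cell potassium channel, was at 6.02, 5.86 and 5.37 in HFD and at 8.14 and 7.29 in ob/ob (difference 1.96). Syt13 and Snap25, which act in granule docking and fusion, had differences of 1.57 and 1.54, with no overlap between the models. Trpm5, a cation channel of beta and tuft cells, went the other way, at 4.35, 3.89 and 4.27 in HFD and at 2.96 and 3.42 in ob/ob (difference -0.99, unadjusted p = 0.0123). Slc2a2, the glucose transporter GLUT2, was at 8.73 in HFD replicate 3, which holds the intestinal genes, and its difference went from -0.04 with all mice to 0.99 without that mouse. Of 13 islet transcription factors 12 were higher in ob/ob (median 0.76, and 0.46 without ob/ob replicate 1). When genes below a mean of 5 rlog units were left out, the medians of the secretion and transcription factor lists were 0.42 and 0.17, below the 0.69 of the macrophage list. Pax6, a factor of all endocrine cells, was at 4.26, 3.74 and 3.77 in HFD and at 5.62 and 5.36 in ob/ob (difference 1.56, unadjusted p = 0.00108). Pdx1 and Mafa, which drive the insulin genes, differed by 0.17 and 0.25, less than their standard errors. Rfx6 and Nkx6-1 differed by 1.17 and 1.06 and had an unadjusted p-value under 0.05 with all mice but not without HFD replicate 3 (0.079 and 0.06).

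The 2 largest positive differences, among genes with an unadjusted p-value under 0.05 and no overlap between the models, lay outside the islet lists. H19 (chromosome 7, 142575529 to 142578143, minus strand), a maternally expressed noncoding RNA that is high in fetal tissue, was at 4.92, 5.77 and 5.69 in the HFD mice (replicates 1, 2 and 3) and at 7.32 and 8.82 in ob/ob replicates 1 and 2, with LFD from 4.58 to 5.03. Its difference was 2.61 (standard error 0.46, unadjusted p = 0.000381), and its gap of 1.55 to the nearest mouse of the other groups was the largest in the table. Igf2, the growth factor gene of the same imprinted domain, was at 2.42, 2.98 and 3.02 in HFD and at 3.82 and 3.53 in ob/ob (difference 0.87), but LFD reached 3.55. Tnr, tenascin R of the neural matrix, was at 3.40, 3.09 and 3.61 in HFD and at 5.80 and 5.48 in ob/ob (difference 2.27, unadjusted p = 0.000147, the smallest of the table). Col11a1 (chromosome 3, 114030540 to 114220718), a fibrillar collagen that is high in activated fibroblasts, was at 5.38, 5.50 and 5.66 in HFD and at 6.95 and 7.88 in ob/ob (difference 1.90). Col11a1 was the 1 collagen of 19 with an unadjusted p-value under 0.05, although 16 had a higher mean in ob/ob (median 0.37). That median was 0.12 without HFD replicate 1, 0.61 without HFD replicate 3, 0.98 without ob/ob replicate 1 and -0.09 without ob/ob replicate 2, so that its sign rested on the last mouse. Col3a1, a main fibrillar collagen, was at 12.75, 13.75 and 14.44 in HFD and at 13.59 and 14.90 in ob/ob, with overlap. Col1a1 was at 10.63, 11.28 and 12.53 in HFD and at 11.29 and 11.72 in ob/ob, inside the HFD range. Matrix glycoproteins had 19 of 23 higher and a median of 0.44 (0.05 without HFD replicate 1, 0.69 without HFD replicate 3, 0.97 without ob/ob replicate 1 and -0.03 without ob/ob replicate 2), with Tnr, Spock2 (difference 1.74) and Adamtsl3 past an unadjusted p of 0.05. Adamtsl3 was high in 1 mouse, at 9.06 in ob/ob replicate 2 and 6.43 in replicate 1 against 5.92 to 6.15 in HFD.

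On the HFD side stood epithelial genes of the duct, although the red blood cell, small intestine and mucin lists had lower medians (-1.56, -1.16 and -1.0). Whether this RNA came from pancreatic duct or from the mT graft was not tested. In the duct list 16 of 19 genes had a lower mean in ob/ob (median -0.84), 8 of them with an unadjusted p-value under 0.05, but the mice of the models did not overlap for only 3. Over all genes 1.63% were lower at this p-value and 5.42% had every ob/ob mouse below every HFD mouse. The mean of the duct list was 8.67, 9.36 and 9.30 in HFD and 8.71 and 8.28 in ob/ob, so that the models overlapped. Car2 (chromosome 3, 14886273 to 14900770), the carbonic anhydrase of bicarbonate secretion, was at 8.72, 8.90 and 10.04 in HFD and at 7.37 and 7.12 in ob/ob, with LFD from 7.15 to 8.33 (difference -1.97, standard error 0.45, unadjusted p = 0.00191). Onecut2, a factor of duct and endocrine development, was at 8.09, 8.87 and 9.37 in HFD, above every LFD and ob/ob mouse, and at 7.24 and 7.08 in ob/ob (difference -1.62). Krt19, a duct keratin, was at 9.82, 11.26 and 11.47 in HFD and at 10.05 and 8.95 in ob/ob, so that ob/ob replicate 1 lay above HFD replicate 1 (difference -1.35). Krt7 overlapped in the same way. Sox9, a duct and progenitor factor, was at 6.85 to 7.07 in HFD and at 6.96 and 6.87 in ob/ob (difference -0.07, standard error 0.21). Aqp5, a water channel, had the largest difference of the list and the opposite sign, 2.0, which rested on ob/ob replicate 2 at 8.84 with replicate 1 at 6.15, inside the HFD range of 4.24 to 6.81. The median of the list was -0.66 without HFD replicate 3, -1.24 without ob/ob replicate 1 and -0.28 without ob/ob replicate 2.

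The ERBB family of growth factor receptors, whose members signal as pairs from the epithelial surface, followed the duct genes for part of the list. Of 12 measured genes 10 had a lower mean in ob/ob (median -0.51), and 4 did not overlap. The median was -0.21 without HFD replicate 2 and -1.02 without ob/ob replicate 1. Erbb2 (chromosome 11, 98412470 to 98437716), the receptor HER2, was at 7.33, 7.56 and 7.55 in HFD, above every LFD mouse (6.20 to 6.69), and at 6.48 and 6.37 in ob/ob (difference -1.05, standard error 0.24, unadjusted p = 0.00187). The ligand Tgfa was at 7.20, 8.11 and 8.10 in HFD and at 6.83 and 6.44 in ob/ob (difference -1.17), and Erbb3 had a difference of -0.94, both with no overlap. Egfr itself differed by -0.24 (standard error 0.20), with ob/ob inside the HFD range. Mucin and gastric-type genes were lower for 9 of 10, but their median went from -1.0 to -0.45 without HFD replicate 3, -0.24 without ob/ob replicate 2, -1.55 without HFD replicate 1 and -1.68 without ob/ob replicate 1. Among genes with an unadjusted p-value under 0.05 and no overlap between the models, 10 of the 15 with the largest negative differences had their highest value in HFD replicate 3. Without HFD replicate 3, 10 of the 15 stayed under an unadjusted p of 0.05. Adgrg7, an adhesion receptor, was at 7.68, 7.30 and 8.08 in HFD and at 5.58 and 5.01 in ob/ob (difference -2.39, and -2.20 without HFD replicate 3). Mcpt8 and Mcpt1, proteases of basophils and mucosal mast cells, were lower in ob/ob by 2.41 and 2.16 on the log2 scale with all mice and lost an unadjusted p under 0.05 without HFD replicate 3.

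The medians of the neutrophil and macrophage lists had opposite signs, and no member passed adjustment. The mean of the neutrophil list was 6.50, 7.72 and 7.61 in HFD and 6.66 and 6.31 in ob/ob. That of the macrophage list was 8.45, 9.26 and 8.85 in HFD and 9.13 and 9.86 in ob/ob. The models thus overlapped in the mean of either list. Leaving out 1 mouse at a time gave neutrophil medians from -1.16 (without ob/ob replicate 1) to -0.55 and macrophage medians from 0.34 (without ob/ob replicate 2) to 1.09 (without ob/ob replicate 1). In the neutrophil list 11 of 12 genes had a lower mean in ob/ob (median -0.68), 4 with an unadjusted p-value under 0.05. Ltf (chromosome 9, 111019271 to 111042767), lactoferrin of neutrophil granules and gland epithelium, was at 9.08, 9.77 and 9.21 in HFD and at 7.75 and 7.21 in ob/ob, with LFD from 7.56 to 9.11 (difference -1.87, unadjusted p = 0.00198). Cxcl5, a chemokine that draws neutrophils, was at 7.70, 9.48 and 9.43 in HFD and at 7.48 and 6.67 in ob/ob (difference -1.79, and -1.51 with unadjusted p = 0.063 without HFD replicate 3). S100a8 and S100a9, the calprotectin subunits, were lower by 1.32 and 1.18 on the log2 scale, with S100a9 of HFD replicate 1 level with ob/ob replicate 1 at 8.06. Lcn2 was the exception, at 10.69 in ob/ob replicate 1 above all HFD mice. In the macrophage list 18 of 21 genes had a higher mean in ob/ob (median 0.69), 5 with an unadjusted p-value under 0.05 and 7 with both ob/ob mice above every HFD mouse. F13a1 (chromosome 13, 36867178 to 37050244), the coagulation factor XIII subunit of tissue macrophages, was at 9.90, 10.03 and 9.66 in HFD and at 10.70 and 11.78 in ob/ob (difference 1.38, standard error 0.31, unadjusted p = 0.00176). Cbr2 was at 6.73, 7.13 and 6.43 in HFD and at 7.81 and 8.35 in ob/ob (difference 1.32), and Mrc1, the mannose receptor, differed by 0.90 and Cd163 by 0.59. The monocyte gene Ly6c2 differed by -0.28 (standard error 0.44). The T and NK cell, B cell and MHC class II lists had medians of 0.05, -0.20 and 0.18, each of which changed sign without 1 of the mice, with 0 genes past an unadjusted p of 0.05 in limma.

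**Figure D3:**
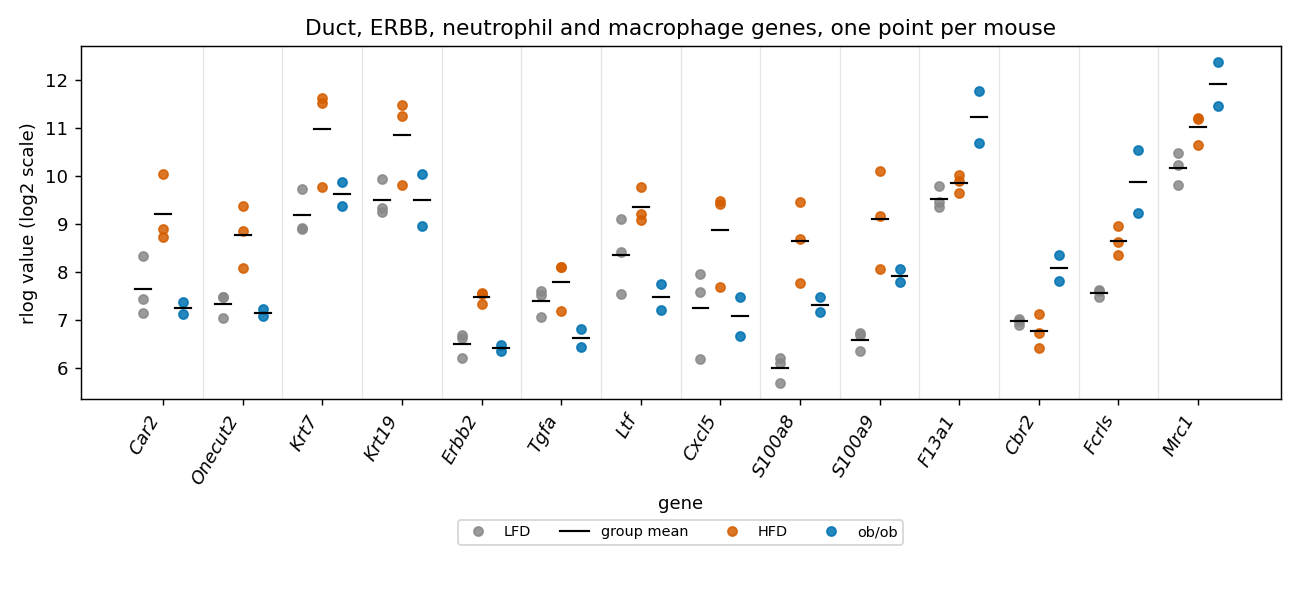
Rlog value (log2 scale, y axis) of duct, ERBB, neutrophil and macrophage genes (x axis) in each mouse, grey for LFD, orange for HFD and blue for ob/ob, with a black line at each group mean. Both ob/ob mice lie below all HFD mice for Car2, Onecut2, Erbb2, Tgfa, Ltf, Cxcl5 and S100a8 and above them for F13a1, Cbr2, Fcrls and Mrc1.

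Part of the circadian clock list, 5 genes, was higher in ob/ob, and for these 5 the HFD mean was the lowest of the 3 groups. The clock is a loop in which Arntl and Clock drive E-box genes, among them Per and Cry repressors, Nr1d1 and Nr1d2, and Dbp and Tef of the PAR-bZIP family. Of the 20 genes 11 were higher and 9 lower in ob/ob, and 5, all higher, had an unadjusted p-value under 0.05. Nr1d2 was at 8.98, 8.67 and 8.85 in HFD and at 9.70 and 9.59 in ob/ob, with LFD from 10.21 to 10.40 (difference 0.81, standard error 0.17, unadjusted p = 0.00119). Dbp (chromosome 7, 45705088 to 45710203) was at 6.50, 5.84 and 5.77 in HFD, at 7.64 and 7.05 in ob/ob and at 7.82 to 8.58 in LFD (difference 1.31). Nr1d1, Tef and Per1 had differences of 1.36, 0.65 and 0.77. For Nr1d2, Dbp, Tef and Per1 all HFD mice thus lay below every mouse of both other groups. The repressors Per2 and Cry1 did not follow. Per2 was at 8.04, 7.50 and 7.28 in HFD and at 7.31 and 6.78 in ob/ob, with overlap. Cry1 was at 7.99, 7.14 and 7.05 in HFD and lower in both ob/ob mice, at 6.92 and 6.70 (unadjusted p = 0.0838). Arntl was lower in ob/ob (7.12 and 7.21) than in HFD (7.44 to 8.07), with LFD lower still at 5.77 to 6.47. The sources used here do not give the hour at which tissue was taken, so the time of day cannot be told apart from the models.

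The E-box letters CACGTG read the same on both strands. They stood in the 250 bases before the RefSeq start of 5 of the 17 clock genes with a sequence (Bhlhe41, Ciart, Cry1, Per1 and Tef). Counted by window this was 6 of 22, against 6.02% of all windows. Per1 and Cry1 are shown because they carry the element yet differed in opposite directions, for chr11:69098737-69098836 (plus strand) and chr10:85185061-85185160 (minus strand), 5′ to 3′ on the strand of the gene, E-box in capitals.
Per1: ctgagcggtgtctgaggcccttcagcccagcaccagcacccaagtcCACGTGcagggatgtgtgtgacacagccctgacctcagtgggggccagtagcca
Cry1: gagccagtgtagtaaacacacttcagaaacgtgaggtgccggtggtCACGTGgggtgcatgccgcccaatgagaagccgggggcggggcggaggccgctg
The element lies 166 bases before the RefSeq start of Per1 and 60 before that of Cry1. The Per1 start lies 3732 bases downstream of the outermost Gencode M21 start, so that its printed stretch lies within the Gencode gene, and the Cry1 start lies 10 bases downstream.

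**Figure D4:**
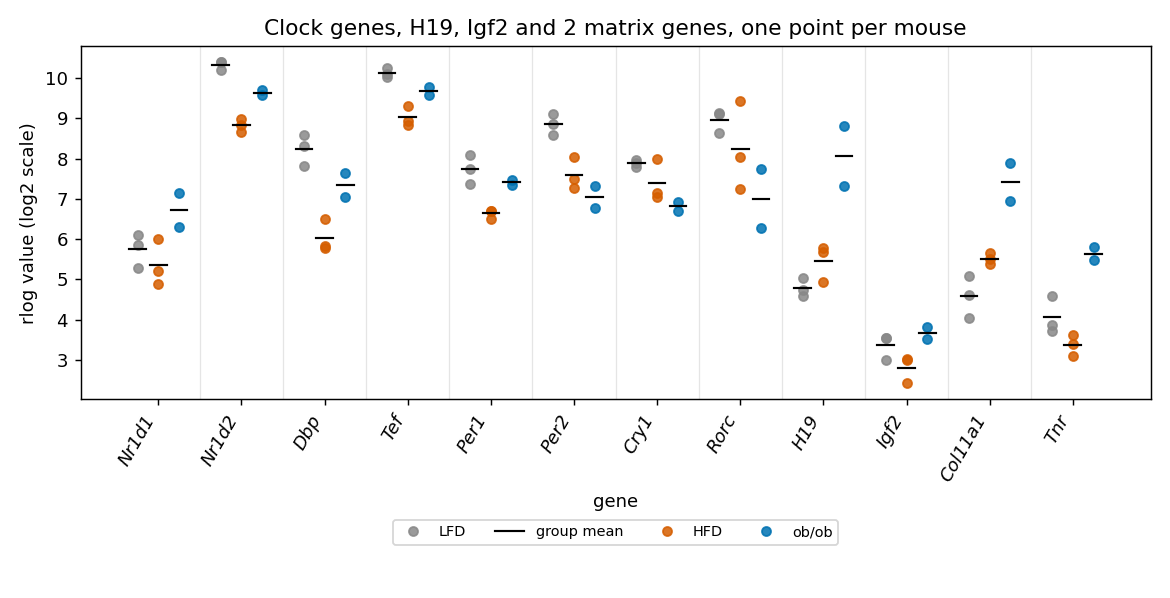
Rlog value (log2 scale, y axis) of 8 clock genes, H19, Igf2, Col11a1 and Tnr (x axis) in each mouse, grey for LFD, orange for HFD and blue for ob/ob, with a black line at each group mean. HFD is lowest for Nr1d2, Dbp, Tef and Per1, and ob/ob is highest for H19, Col11a1 and Tnr.

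Metabolic and cell cycle lists held small shifts that were mostly within the spread of mice. Fatty acid oxidation genes were lower in ob/ob for 20 of 23, with a median of -0.16 (-0.08 without HFD replicate 1 or without ob/ob replicate 2, and -0.29 without HFD replicate 2). Cidea, a lipid droplet protein of fat cells, was at 4.11, 4.50 and 3.67 in HFD and at 3.05 and 2.26 in ob/ob (difference -1.44), whereas the adipocyte list had a median of -0.13 (-0.77 without ob/ob replicate 1 and 0.54 without ob/ob replicate 2). Cyp2e1, a cytochrome P450 of ketone and alcohol metabolism, was at 5.14, 5.16 and 4.73 in HFD and at 4.33 and 3.55 in ob/ob, with LFD from 6.69 to 7.57, so that both models lay below the lean mice and ob/ob lay lower (difference -1.07). The 79 genes of the respiratory chain and ATP synthase had 69 with a lower mean in ob/ob, but the median was -0.17 and 0 genes had an unadjusted p-value under 0.05. For complex I the median turned from -0.13 to 0.09 without HFD replicate 1 and to 0.04 without ob/ob replicate 2. Cholesterol synthesis was lower for 17 of 24 (median -0.23, with -0.08 without HFD replicate 3, -0.42 without HFD replicate 1 and -0.14 without ob/ob replicate 2). All 25 mitosis genes had a higher mean in ob/ob (median 0.47, with 0.86 without HFD replicate 3 and 1.0 without ob/ob replicate 1), with 0 past an unadjusted p of 0.05. The median turned to -0.09 without HFD replicate 1 and to -0.10 without ob/ob replicate 2. The mitosis mean was 5.72, 6.99 and 7.72 in HFD and 6.70 and 7.83 in ob/ob, so that the models overlapped. Red blood cell genes, outside the metabolic and cell cycle lists, had a larger shift. They were lower for 7 of 7 (median -1.56, and -0.91 to -2.23 without HFD replicate 3 and HFD replicate 2). An unadjusted p-value under 0.05 was found for 4 of them with limma, against 1.63% of all genes on this side, but the models overlapped for all 7. Hbb-bs was at 13.50, 11.68 and 13.82 in HFD and at 11.99 and 10.89 in ob/ob. The acinar enzyme genes had a median of -0.15 with all mice, -1.16 without HFD replicate 3 and -1.70 without ob/ob replicate 1, but 0.88 without HFD replicate 1 and 1.34 without ob/ob replicate 2, and 0 of 28 passed an unadjusted p of 0.05. Ribosomal protein, ER folding, interferon, endothelial and MAPK output lists had medians between -0.17 and -0.05, and each of these turned positive without at least 1 of the mice.

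**Figure D5:**
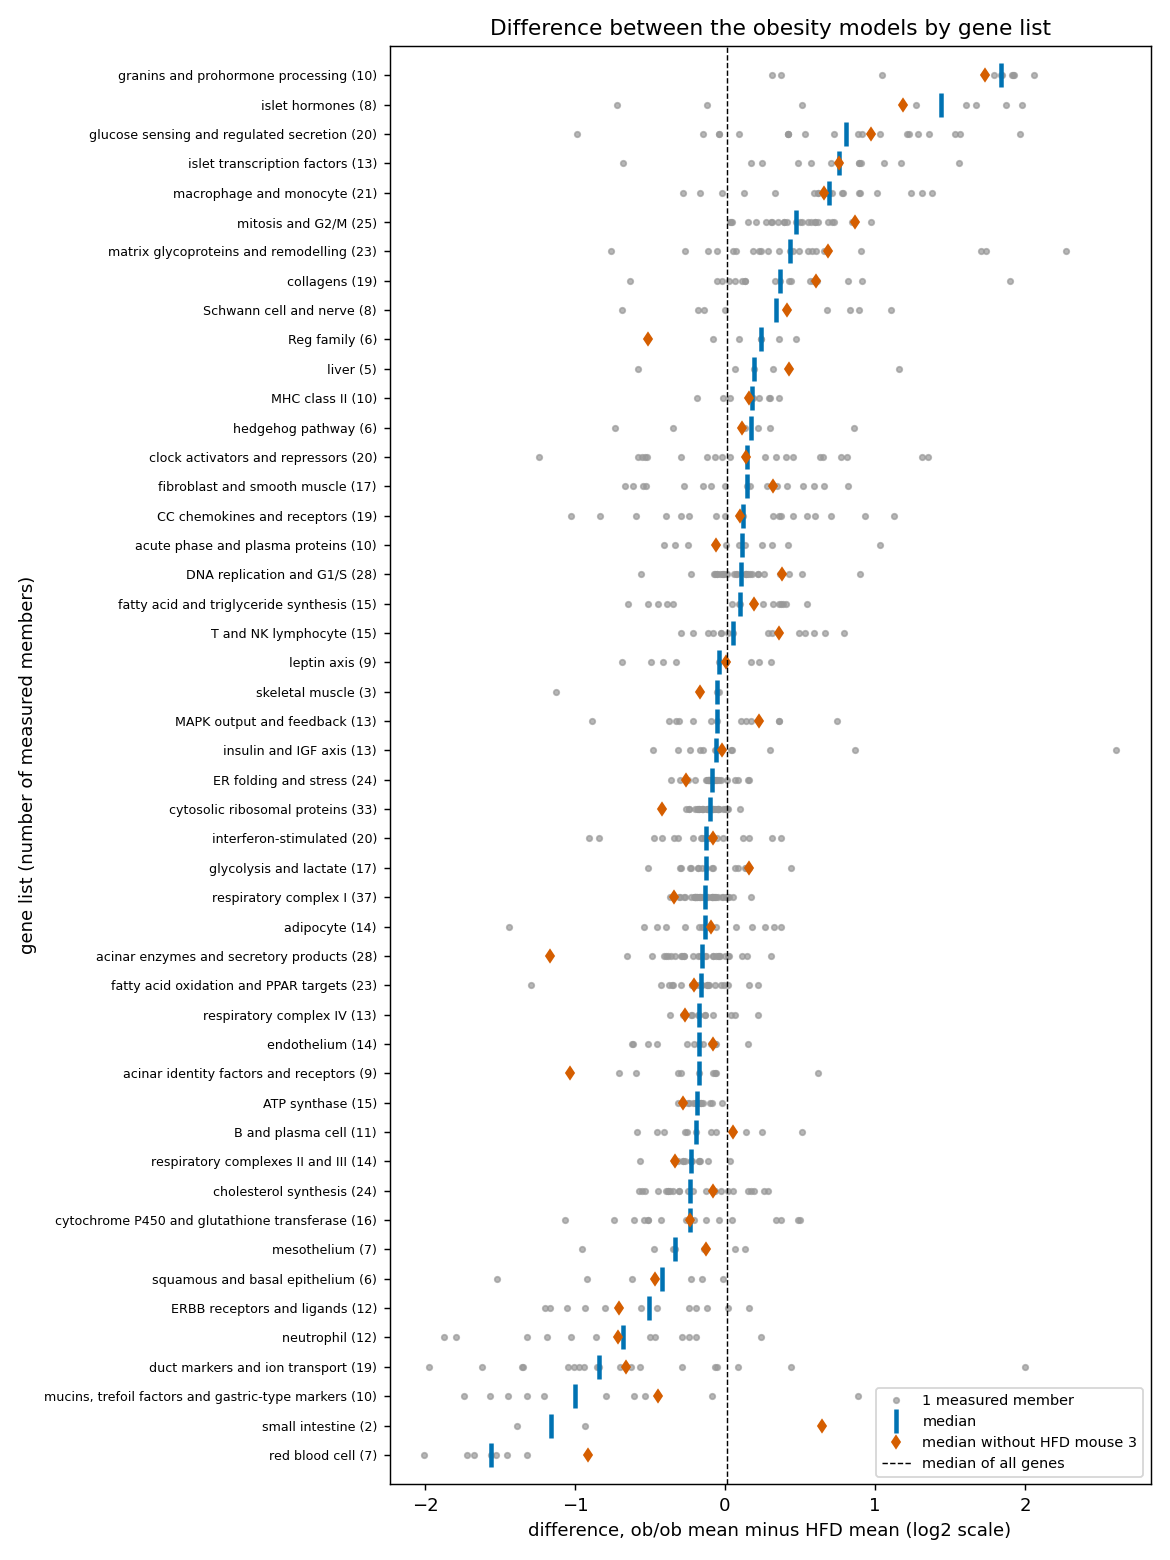
Difference between the models (ob/ob mean minus HFD mean, log2 scale, x axis) for the measured members of 48 gene lists (y axis, number of measured members in brackets), with grey points for genes, a blue bar for the list's median with all mice and an orange diamond for the median without HFD replicate 3. Granins, with a median of 1.84, lie highest and red blood cell genes, with -1.56, lowest, and the acinar lists move most to the left when HFD replicate 3 is left out.

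The lean mice gave a reference for genes on which 1 model stood apart. The smaller ob/ob group stands apart more readily than the HFD group, so the counts of the models cannot be compared. Both ob/ob mice were above all HFD and LFD mice for 568 genes (3.77% of all) and below for 301 (2%). All HFD mice were above every ob/ob and LFD mouse for 235 genes (1.56%) and below for 284 (1.89%). Among so few mice, a group can stand apart on a gene where the groups do not differ. Whether these shares exceed what would then arise was not tested. Neither the counts nor the gaps that follow therefore mark a difference by themselves. Of the 1191 genes on which ob/ob lay above HFD, 568 had ob/ob above the lean mice too, and 284 had HFD below them. For 370 of the 1191 genes neither model stood apart from both other groups. H19, Col11a1, Gabbr2 and Chgb had the largest gaps on the ob/ob side (1.55, 1.29, 1.12 and 1.10). Gabbr2, a subunit of the GABA-B receptor, was at 4.12 and 4.34 in ob/ob and at 2.15 to 3.01 in the other 6 mice. Tmem254a, Ngef and Paqr5 had the largest gaps below, 0.73, 0.57 and 0.52. On the HFD side, Abca13, Gata5 and Tnfrsf11b, osteoprotegerin, stood highest above the others among the named genes (0.76, 0.67 and 0.67), with 2 predicted genes at 0.93 and 0.68. Baiap3, which acts in dense-core vesicle traffic, and Gfra1, the receptor of the nerve growth factor GDNF, had HFD below all others by 0.95 and 0.72. Baiap3 was at 3.56, 3.47 and 3.52 in HFD, at 5.08 and 4.68 in ob/ob and at 4.51 to 5.10 in LFD, so that its HFD mice, and not its ob/ob mice, lay apart from LFD.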

How the data were processed

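The pancreas RNA of 8 male mice was used, grouped by the sample labels as 3 LFD, 3 HFD and 2 ob/ob. The authors quantified transcripts of Gencode M18 (GRCm38.p6) with Salmon 0.11.3, summed them per gene and deposited rlog values made with DESeq2 1.22.2, on a log2 scale, for 15047 gene symbols. Salmon splits reads between similar transcripts, so close paralogs are uncertain. No read counts were used, so depth is unknown, and the transformation shrinks differences of weakly expressed genes.

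From these deposited log2 values, differences were tested in R 4.3.3 by limma 3.58.1 (a mean for each group, all 8 mice, empirical Bayes with a trend, Benjamini-Hochberg over all genes), with differences as ob/ob minus HFD. Tables were made with pandas 2.3.3 in Python 3.11.15. Replicates are separate samples per the labels, taken as different mice. The p-values and standard errors rest on a spread within groups shared by all 8 mice, to which the LFD mice contribute. The paper describes only the LFD mice as clustering homogeneously, so this spread may be too small for ob/ob against HFD. The 48 gene lists, the members and the rules were chosen with earlier results of these data known. Lists were described by counts and medians, without a test. The genes named are the 15 with the largest difference each way among those with an unadjusted p under 0.05 and no overlap between the models, the 3 largest members of each list, the islet hormones, Lep and Lepr, the 5 that stood furthest apart from both other groups in each direction, and those with an adjusted p under 0.05 under the acinar covariate. Further list members were named after their values were seen. The values of 1 gene that the rule names are not reported here. Coordinates come from Gencode M21 on GRCm38, the same assembly in another release, and 177 of 178 genes were found. In data simulated for this comparison on 15047 genes, limma called 2%, 20%, 90% and 100% of those shifted by 2, 4, 8 and 16 residual SDs. It also made 10 false calls among unchanged genes. The simulated noise was independent between genes, unlike mice that differ in acinar or intestinal RNA, so these shares may not carry over to the real data. The alternatives were no trend, only the 5 obese mice, a mean rlog value of at least 5, median centring, quantile normalization, robust empirical Bayes, the mean of 28 acinar genes as a covariate, the replicate number as a block and leaving out each mouse.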

Additional observations from a re-analysis of the deposited data

How the results depend on the processing

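With all mice 0 genes had an adjusted p under 0.05 with limma, and at an unadjusted p under 0.05 ob/ob had 343 genes higher and 245 lower. With the acinar covariate 1 gene (Scg2) passed adjustment and the counts were 648 and 541. A mean rlog value of at least 5 gave 209 higher. The 5 mice of HFD and ob/ob alone gave 235 higher and 118 lower. In that fit 14 of the 178 genes under the naming rules lost an unadjusted p under 0.05 and 1 gained it. Leaving out each mouse in turn gave 0 to 1 adjusted calls, 271 to 602 genes higher and 98 to 627 lower. Without HFD replicate 1 there were 627 lower, without ob/ob replicate 1 there were 602 higher and 515 lower, and without ob/ob replicate 2 there were 98 lower. The 1 adjusted call without ob/ob replicate 2 was Rnu3b1, a U3 small nucleolar RNA outside the naming rule, at 11.0 in ob/ob replicate 1 and 6.78 in replicate 2. Where 1 ob/ob mouse was left, it is assumed to vary like the other groups. The cause of these changes was not tested. Leaving out HFD replicate 3 turned Apoa1 to 2.66 and Lct to 1.74 (2.74 and 1.77 with the acinar covariate as well, a fit added after seeing the data), since that mouse alone held them high, and over all mice left out in turn their differences ran from -2.22 to 2.66 and from -2.38 to 1.74. No other named gene with an unadjusted p under 0.05 in either fit changed sign in any alternative. The distance between the models kept its sign in every setting (-10.7 to -10.4). Counts of genes on which 1 model stood apart stayed within 1.5 times under median centring and quantile normalization. When the replicate number entered as a block, 284 genes were higher and 183 lower and 0 passed adjustment. The deviations of same-numbered HFD and ob/ob mice correlated at 0.592 (replicates 1) and 0.303 (replicates 2). HFD replicate 3 and ob/ob replicate 2, with different numbers, correlated at 0.44, above the second of these values. For every HFD mouse, swapping the ob/ob mouse changed only the sign of the correlation. These 2 same-numbered pairs therefore do not show a pairing, and the labels give only a shared number.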
